A study of Mus musculus with 27 samples.

Results

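The 8 genes described here encode subunits of Polycomb repressive complex 2 (PRC2) and were chosen by name: Ezh1, Ezh2, Eed, Suz12, Jarid2, Mtf2, Phf1 and Phf19. They were read out of 22388 gene symbols that carried a value in at least 1 of the 3 experiments, which hold 27 RNA-seq libraries in 12 groups. All libraries came from Setdb1 cKO iMEFs, immortalized mouse embryonic fibroblasts of 1 recloned line in which 4-hydroxytamoxifen (4OHT) triggers deletion of Setdb1, an H3K9 methyltransferase. The first experiment sequenced ribosome-depleted total RNA of untreated cells, of cells given 4OHT for 4 days and taken at day 5, and of long-term KO cells kept for more than 2 weeks (3 libraries each). The second transfected cells with control siRNA (siCtrl) or siRNA to the DNA methyltransferase Dnmt1 (siDnmt1), each with and without 4OHT, and harvested them at day 6 (2 libraries each). The third compared untreated cells with cells given 150 nM trichostatin A (TSA, a histone deacetylase inhibitor) for 24 h, 1 µM of the MEK inhibitor PD0325901 for the last 24 h, 4OHT to day 6, or 4OHT with PD0325901 (2 libraries each). No source used here states that libraries of a group came from separate cultures, so the p-values measure the spread between these libraries, which may be technical.

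PRC2 places methyl groups on lysine H3K27, the mark that keeps many developmental genes silent in cells that do not use them. Its core holds a catalytic subunit, Ezh2 or its paralog Ezh1, together with Eed, which binds the finished mark and stimulates the enzyme, and Suz12, the scaffold of the complex. Accessory subunits bring the core to chromatin: the Polycomb-like proteins Mtf2, Phf1 and Phf19 bind CpG-rich DNA and methylated H3K36, while Jarid2 joins a separate form of the complex with Aebp2. Ezh2 is known as the form of dividing cells and Ezh1 as the one that persists in cells at rest, and fibroblasts in culture express both.

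In mm9, the build of the deposited loci, Ezh1 lies on chromosome 11 from 101052429 to 101087777 and Suz12 on the same chromosome from 79806608 to 79847625. Ezh2 lies on chromosome 6 from 47480273 to 47545029, Eed on chromosome 7 from 97103164 to 97129486 and Jarid2 on chromosome 13 from 44826143 to 45017012. Mtf2 lies on chromosome 5 from 108494693 to 108538238, Phf1 on chromosome 17 from 27070072 to 27074853 and Phf19 on chromosome 2 from 34749275 to 34769496.

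The stretches before the transcription start are shown for 4 members: the catalytic paralogs Ezh2 and Ezh1, whose balance is followed below, and Phf19 and Jarid2, the members with the largest differences under TSA. Each is the 250 bases upstream of a RefSeq start in GRCm38.p6, a later build than that of the loci, read 5′ to 3′ on the gene's own strand. Capitals mark matches on either strand to CCAAT, to the GC box GGGCGG, or to the E2F-type motifs TTTGGCGC, TTTCCCGC, TTCCCGCC and TTTCGCGC, of which the middle pair overlap, as can neighbouring GC boxes.
Ezh2 (chr6:47595031-47595280, minus strand): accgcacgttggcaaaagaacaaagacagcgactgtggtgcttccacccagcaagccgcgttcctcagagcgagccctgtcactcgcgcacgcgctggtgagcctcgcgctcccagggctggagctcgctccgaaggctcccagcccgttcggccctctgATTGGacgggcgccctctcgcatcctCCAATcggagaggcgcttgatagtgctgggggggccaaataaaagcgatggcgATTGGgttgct
Ezh1 (chr11:101226464-101226713, minus strand): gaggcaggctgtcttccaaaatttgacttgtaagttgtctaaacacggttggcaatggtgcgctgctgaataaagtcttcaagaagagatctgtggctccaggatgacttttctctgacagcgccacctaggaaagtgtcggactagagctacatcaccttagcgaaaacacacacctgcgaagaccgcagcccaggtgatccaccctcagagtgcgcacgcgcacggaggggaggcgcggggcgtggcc
Phf19 (chr2:34913977-34914226, minus strand): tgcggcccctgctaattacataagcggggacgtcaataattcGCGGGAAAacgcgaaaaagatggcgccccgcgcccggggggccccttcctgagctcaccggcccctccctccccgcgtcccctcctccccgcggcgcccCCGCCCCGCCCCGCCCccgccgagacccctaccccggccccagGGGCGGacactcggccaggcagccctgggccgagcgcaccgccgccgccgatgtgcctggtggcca
Jarid2 (chr13:44730524-44730773, plus strand): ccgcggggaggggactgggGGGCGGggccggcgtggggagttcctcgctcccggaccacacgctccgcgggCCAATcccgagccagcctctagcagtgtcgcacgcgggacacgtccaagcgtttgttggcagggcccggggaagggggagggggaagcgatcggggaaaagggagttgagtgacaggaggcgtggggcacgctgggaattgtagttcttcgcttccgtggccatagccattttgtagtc
The Ezh2 window held 3 CCAAT matches and no GC box, and the Ezh1 window held none of the 6 motifs. The Phf19 window held 1 E2F-type match, GCGGGAAA, which is TTTCCCGC on the other strand, and 4 GC boxes. The Jarid2 window held 1 CCAAT match and 1 GC box. Over 32851 windows of the same length, 33.8% held CCAAT, 32.7% GGGCGG, and 2.92% at least 1 E2F-type motif. Among the 8 members an E2F-type match was found for 2, Phf19 and Suz12. These matches describe the letters in the windows only.

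The levels given are FPKM, fragments scaled to transcript length and to the fragments mapped in the library, as the authors' assembly gave them with a 95% interval. Of 216 possible values of the members, 214 were present, and the median half-width of the interval was 8.88% of the value. In 7 values it exceeded 50%, all of Phf1, Phf19 or Ezh1 in the inhibitor experiment. The files hold no read counts, so the depth of a library is not known from them. Setdb1 itself, measured over the whole gene, averaged 5.55 FPKM ± 0.391 (SD, n = 3) in untreated total RNA, 4.96 ± 1.35 in the libraries labelled 4OHT day 5 and 7.17 ± 0.189 in those labelled long-term KO, so the whole-gene value does not follow the labels there. In the siRNA experiment it was 7.40 and 6.48 FPKM in siCtrl and 7.58 and 5.00 FPKM in the libraries labelled 4OHT + siCtrl, which overlap. In the inhibitor experiment, it was 8.76 and 10.1 FPKM untreated, was listed at 0 in 1 of 2 libraries labelled 4OHT day 6 and in both labelled 4OHT + PD0325901, and was 5.34 and 5.56 FPKM in the libraries labelled PD0325901, which were given no 4OHT. A value listed at 0 can be a failed estimate, and this was not tested. The groups below are therefore groups as labelled, and so are all directions drawn from them. The paper screened clones for Setdb1 protein after 4OHT by western blot. It also reported less H3K9me3 at retroviral repeats in 4OHT-treated and in long-term KO cells. Neither protein nor H3K9me3 is measured in these libraries. Dnmt1 averaged 77.0 FPKM in siCtrl and 11.4 FPKM with siDnmt1. Of 10 fibroblast markers, between 9 and 10 averaged at least 1 FPKM in each group, with summed levels from 1481 to 5770 FPKM per library. Pdgfra had no usable value in the total RNA libraries. Summed markers of embryonic stem cells (5 genes) stayed between 0.209 and 5.18 FPKM. The header of the library labelled PD0325901 replicate 2 carries the title of a 4OHT + PD0325901 library beside a description as PD0325901 replicate 2, and the label was followed.

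In control cells Suz12 was the most abundant member and Jarid2 the least in all 3 experiments. In untreated total RNA, Suz12 had 33.1 FPKM ± 1.01 (SD, n = 3), Eed 18.6 ± 1.10, Mtf2 14.3 ± 2.03, Ezh2 11.9 ± 0.974, Phf19 7.40 ± 0.345, Phf1 4.15 ± 0.377 (n = 2), Ezh1 2.58 ± 0.0735 and Jarid2 1.05 ± 0.130. Only Mtf2 and Ezh2 overlapped among neighbours in that order. In siCtrl cells, Suz12 stood at 50.4 FPKM ± 3.002 (SD, n = 2), Ezh2 at 29.6 ± 0.457, Eed at 21.1 ± 0.156 and Jarid2 at 2.24 ± 1.11, and the neighbours Mtf2 (8.42 ± 0.376) and Phf1 (8.34 ± 0.857) overlapped. Untreated cells of the inhibitor experiment gave 60.1 FPKM ± 1.76 for Suz12, 28.0 ± 0.917 for Ezh2 and 25.5 ± 2.74 for Eed, and the last pair overlapped. By its mean in control cells, Ezh2 thus ranked below Mtf2 in total RNA and next to Suz12 in both other experiments, where the labels name no removal of ribosomal RNA. The paper describes the siRNA libraries as mRNA-seq with single reads, and the total RNA libraries as depleted of ribosomal RNA with paired reads. The part of library type in these ranks was not tested. Values were therefore compared within an experiment only. Within the inhibitor experiment, Phf19 ranged from 1.37 to 17.8 FPKM, a 13.0-fold span, and Jarid2 spanned 5.58-fold, while Ezh2 spanned 1.42-fold and Suz12 1.48-fold.

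**Figure D1:**
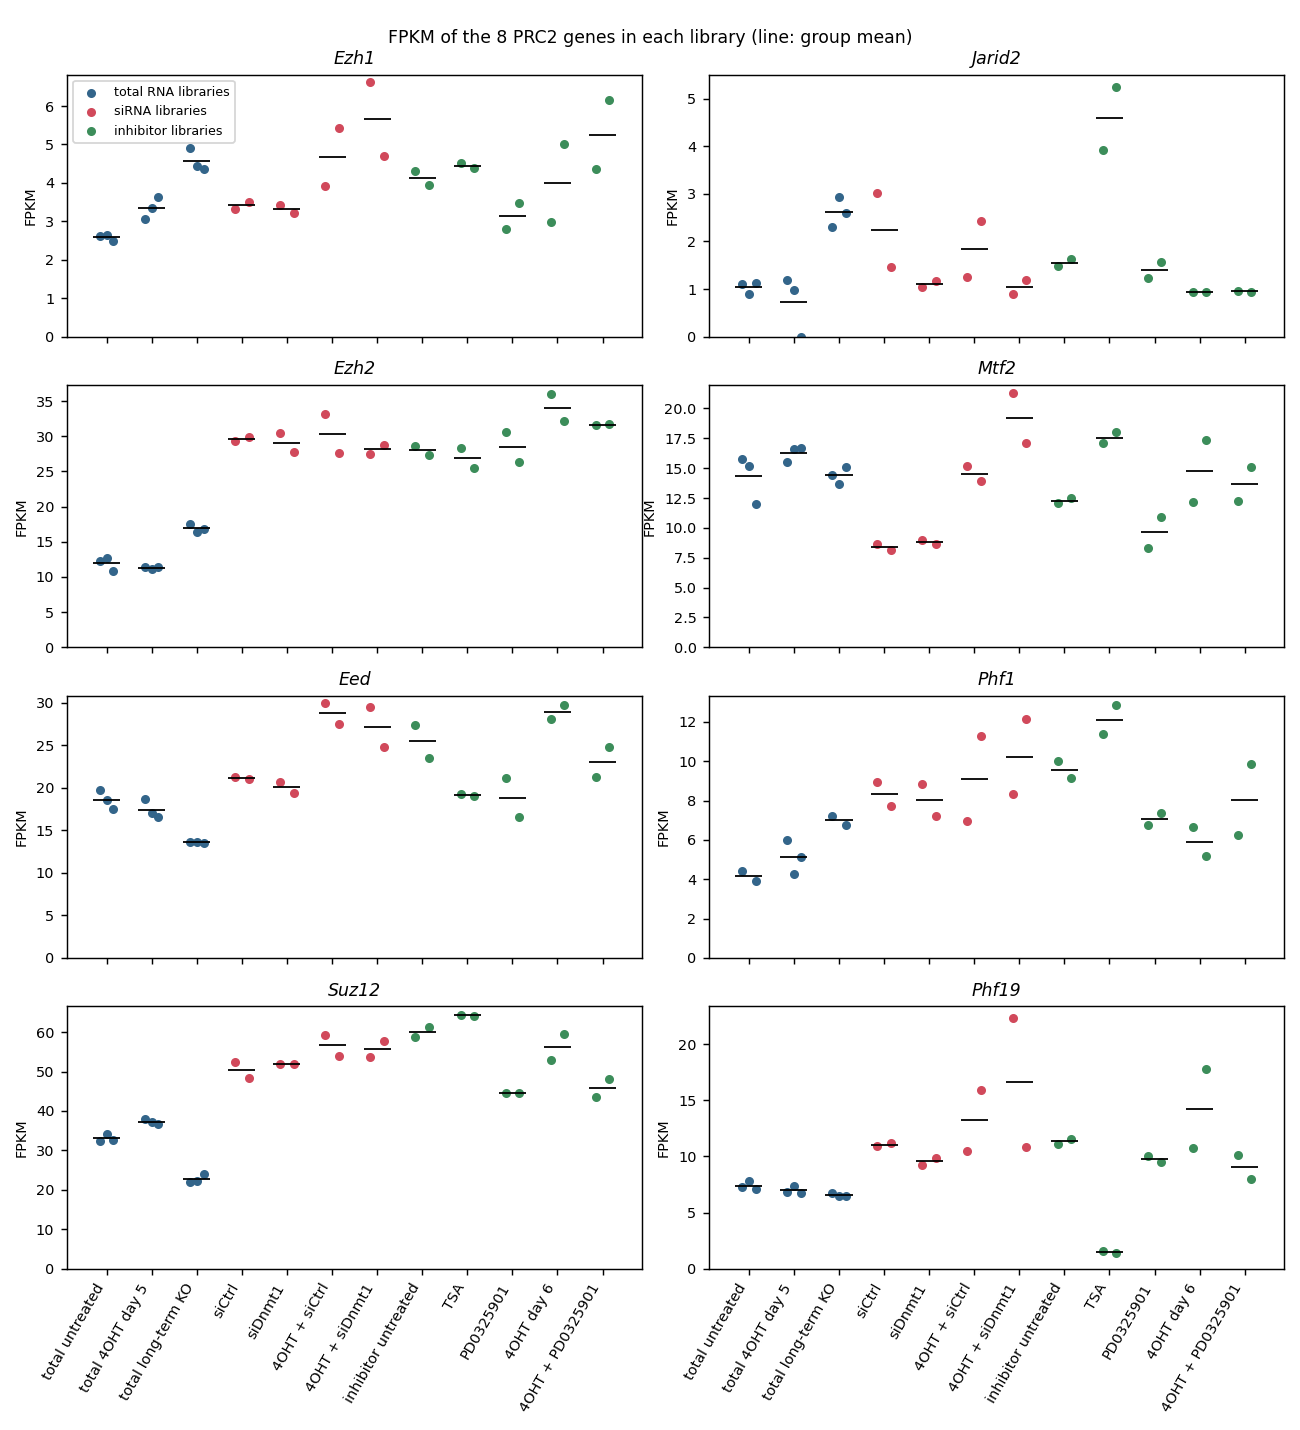
FPKM of the 8 genes (vertical axis, linear from 0, with its own scale for each gene) in each library of the 12 groups (horizontal axis). Points are libraries, coloured by experiment, and lines are group means; within the inhibitor experiment, Phf19 is lowest and Jarid2 highest in the 2 TSA libraries.

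The first question was how PRC2 genes behaved after Setdb1 deletion. In the libraries labelled 4OHT day 5, 2 of the 8 members passed an adjusted p-value under 0.05 in limma, both higher, and none of them by 2-fold. Of the 9775 genes tested, 36.2% passed the same limit, 3.38% by at least 2-fold. Ezh1 rose from 2.61, 2.64 and 2.50 FPKM in untreated libraries to 3.06, 3.36 and 3.62 FPKM, a log2 fold change of 0.36 (SE 0.0735, adjusted p = 0.00700, limma). Suz12 rose from 32.3, 34.3 and 32.7 to 38.0, 37.3 and 36.7 FPKM, by 0.17 on the log2 scale (SE 0.0412, adjusted p = 0.0139). In both genes every 4OHT library lay above every untreated one. Ezh2 stood at 12.3, 12.7 and 10.8 FPKM untreated and at 11.5, 11.1 and 11.5 FPKM at day 5, and its log2 difference of -0.07 had a 95% interval from -0.21 to 0.07. The other 5 members did not pass, and of these Jarid2 was measured poorly: it was 1.20 and 0.98 FPKM in 2 libraries and listed at 0 in the third. At day 5, 5 of 9 fibroblast markers were lower and 1 higher, with sums of 1481 to 1861 FPKM against 2138 to 2163 FPKM, and the epithelial markers summed to between 4.19 and 5.27 FPKM against 1.22 to 1.56 FPKM. In long-term KO cells 4 of 9 fibroblast markers were higher, with sums of 1988 to 2519 FPKM, and epithelial markers summed to between 0.377 and 0.620 FPKM. The part of these markers in the results was not tested.

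In the libraries labelled long-term KO, 6 members passed the test against untreated cells, 3 higher and 3 lower, while 67% of all genes tested passed, 37.6% higher and 29.4% lower. No member changed by 2-fold in this comparison and passed, against 13.7% of all genes. Against day 5, 6 members passed as well, 4 higher and 2 lower, and 1 by at least 2-fold, where 65.9% and 12.4% of genes did. No label names untreated cells kept as long as the long-term KO ones, so loss of Setdb1 and time in culture cannot be told apart. Both catalytic subunits rose. Ezh1 reached 4.92, 4.44 and 4.36 FPKM, 1.74-fold the untreated level (log2 fold change 0.80, SE 0.0735, adjusted p = 3.3e-05, limma). Ezh2 reached 17.5, 16.4 and 16.8 FPKM, 1.42-fold the untreated level (log2 fold change 0.50, SE 0.0604, adjusted p = 0.000161). In neither gene did the groups overlap.

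Their partners in the core fell. Suz12 stood at 22.003, 22.1 and 23.9 FPKM in long-term KO cells, all below the lowest untreated library, and decreased by 0.54 on the log2 scale (SE 0.0412, adjusted p = 1.1e-05, limma). Eed stood at 13.6, 13.7 and 13.6 FPKM and decreased by 0.45 (SE 0.0572, adjusted p = 0.000232). Suz12 had been higher than untreated at day 5, and against day 5 it fell by 0.72 in long-term KO cells (SE 0.0412, adjusted p = 2.8e-06), while Ezh2 rose by 0.57 (SE 0.0604, adjusted p = 7.9e-05). The log2 ratio of Ezh2 to Suz12, a pair chosen after the values were seen, went from -1.47 ± 0.107 (SD, n = 3) in untreated to -0.42 ± 0.0898 in long-term KO libraries without overlap (exact permutation p = 0.1, two-sided, the smallest that 3 against 3 allows). In linear terms, Ezh2 FPKM was between 0.331 and 0.381 of Suz12 FPKM in untreated libraries and between 0.704 and 0.797 in long-term KO ones.

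Among the accessory subunits, Phf1 rose in long-term KO cells and Phf19 fell slightly. Phf1 was 4.42 and 3.89 FPKM in untreated replicates 1 and 2 and 7.21 and 6.77 FPKM in long-term KO replicates 1 and 2 (log2 fold change 0.74, SE 0.16, adjusted p = 0.00816, limma). The third library of each group had no value for Phf1 and was left out of its fit, since Cufflinks joined its locus with neighbouring genes there. With the joined loci used instead, the log2 fold change was 0.94 and the adjusted p was 0.224. Phf19 went from 7.27, 7.79 and 7.13 to 6.74, 6.51 and 6.50 FPKM, a decrease by 0.16 (adjusted p = 0.0182), and this call was lost without untreated replicate 2 (adjusted p = 0.0577), long-term KO replicate 2 (0.0512) or long-term KO replicate 3 (0.0515). Mtf2, the most abundant Polycomb-like gene, stood at 14.5, 13.7 and 15.1 FPKM against 15.8, 15.2 and 11.98 FPKM, and its log2 difference of 0.02 had a 95% interval from -0.21 to 0.25.

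Jarid2 was 2.30, 2.94 and 2.60 FPKM in long-term KO libraries and 1.11, 0.90 and 1.13 FPKM in untreated ones, with no overlap. The log2 fold change of 1.24 nevertheless did not pass (SE 0.875, adjusted p = 0.242, limma), and the single day 5 library listed at 0 set that error: without it the adjusted p was 0.000201. Against day 5, Jarid2 had a log2 fold change of 2.38 (adjusted p = 0.0430), and without the same library this was 1.19 (adjusted p = 0.000534). That call was lost when any 1 library of untreated or long-term KO cells was left out (adjusted p up to 0.0984) and with joined loci (adjusted p = 0.0538).

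**Figure D2:**
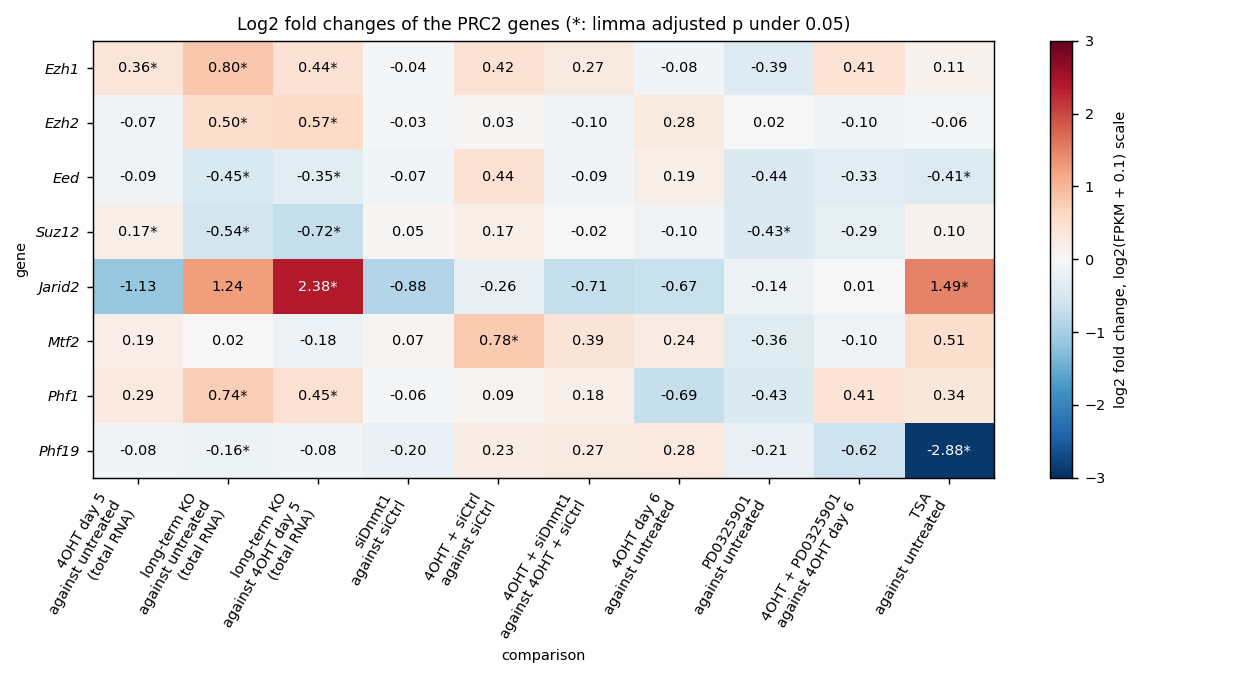
Log2 fold changes of the 8 genes (rows) in the 10 comparisons (columns), on the log2(FPKM + 0.1) scale, with colour from blue (lower) to red (higher) and an asterisk at a limma adjusted p under 0.05. The long-term KO columns hold 6 asterisks each, and the largest value is that of Phf19 under TSA, -2.88.

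The short 4OHT treatment was measured again in the other experiments, with fewer libraries. In the siRNA experiment, 4OHT + siCtrl against siCtrl gave 1 member that passed, against 13.7% of 10684 genes. Mtf2 rose from 8.69 and 8.15 to 15.2 and 13.9 FPKM, 1.72-fold (log2 fold change 0.78, SE 0.139, adjusted p = 0.0208, limma). Leaving out either siCtrl library gave an adjusted p of 0.104 or 0.144, and leaving out either siDnmt1 library 0.0611 or 0.0608. Eed went from 21.2 and 21.0 to 30.0 and 27.5 FPKM without overlap and missed the limit (log2 difference 0.44, SE 0.116, adjusted p = 0.0541). Summed fibroblast markers were 2170 to 2603 FPKM in these libraries and 4275 to 4345 FPKM in siCtrl, with 8 of 10 markers lower, and their part in the result was not tested. The 4OHT + siCtrl libraries differed from each other in Phf1 (6.95 and 11.3 FPKM), Phf19 (10.5 and 15.9 FPKM) and Jarid2 (1.24 and 2.42 FPKM).

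In the inhibitor experiment, 4OHT day 6 against untreated gave no member past the limit in limma, against 24.9% of 11426 genes, and 3 members at an unadjusted p under 0.05. These were Phf1, Jarid2 and Ezh2. Phf1 stood at 6.64 and 5.201 FPKM against 10.0 and 9.14 FPKM untreated, with a log2 difference of -0.69 (adjusted p = 0.0642), and the first of these values had an interval of 99.6% either side. Jarid2 stood at 0.940 and 0.941 FPKM against 1.49 and 1.62 FPKM (log2 difference -0.67, adjusted p = 0.0729). Ezh2 stood at 36.0 and 32.1 FPKM against 28.7 and 27.4 FPKM (log2 difference 0.28, adjusted p = 0.112). Mtf2, which rose in the siRNA experiment, stood at 12.2 and 17.4 FPKM against 12.04 and 12.5 FPKM (log2 difference 0.24, 95% interval -0.23 to 0.72). Of the fibroblast markers 6 of 10 were lower there, with sums of 2596 to 2666 FPKM against 3155 to 3406 FPKM, and their part was not tested. Whether the 4OHT effect differed between the 3 experiments was not tested.

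The siRNA experiment also asked what loss of Dnmt1, the maintenance DNA methyltransferase, did to these genes. With siDnmt1 alone no member passed in limma, and none had an unadjusted p under 0.05, where 7.91% of genes passed. Ezh2 stood at 30.5 and 27.7 FPKM against 29.3 and 29.9 FPKM in siCtrl, and the 95% interval of its log2 difference ran from -0.31 to 0.26. Suz12 stood at 52.0 and 51.9 FPKM against 52.5 and 48.2 FPKM (interval -0.18 to 0.27). Jarid2 was less well bounded: it stood at 1.03 and 1.17 FPKM against 3.02 and 1.45 FPKM in siCtrl, below both, with a log2 difference of -0.88 and an interval from -1.96 to 0.21. In the siDnmt1 libraries the 5 epithelial markers summed to between 55.7 and 56.0 FPKM, against 0.677 to 0.986 FPKM in siCtrl, and the 10 fibroblast markers to between 3387 and 3491 FPKM, and their part was not tested.

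In cells given 4OHT, no member passed for siDnmt1 either (2.03% of genes did), with 1 at an unadjusted p under 0.05. That member was Mtf2, at 21.3 and 17.1 FPKM with both and 15.2 and 13.9 FPKM with 4OHT + siCtrl (log2 difference 0.39, SE 0.139, adjusted p = 0.202, limma). Across the 4 groups Mtf2 was thus lowest in siCtrl and siDnmt1 and highest in 4OHT + siDnmt1, and both 4OHT groups lay above both others. Phf19 was 22.3 and 10.9 FPKM in 4OHT + siDnmt1, a spread larger than its difference between groups. For none of the members did the interaction of 4OHT and siDnmt1 pass in limma (0 at an unadjusted p under 0.05), and 0.197% of genes did.

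In the libraries labelled PD0325901, an inhibitor of the MEK step of growth factor signalling, 1 member was lower, against 13.7% of genes that passed in either direction and 7.8% lower and 5.93% higher. Suz12 fell from 58.8 and 61.3 to 44.4 and 44.6 FPKM (log2 fold change -0.43, SE 0.0939, adjusted p = 0.0237, limma). It did not pass when either library of PD0325901 or of untreated cells was left out, with an adjusted p of up to 0.164. Eed stood at 21.1 and 16.6 FPKM against 27.4 and 23.5 FPKM, with a log2 difference of -0.44 that missed the limit (adjusted p = 0.0925). Ezh2 stood at 30.6 and 26.4 FPKM and bracketed the untreated values (log2 difference 0.02, 95% interval -0.24 to 0.28). The estimate was below 0 in 7 of 8 members, with a median of -0.37, where the median of all genes was -0.07, and in 6 of 8 with quantile normalization. These estimates share the same libraries, and the share of all genes below 0 was not counted. In the PD0325901 libraries the deposited interval reached 278% either side of the value for Phf19, 54.4% for Ezh1 and 38.1% for Phf1. In the same libraries 5 of 21 proliferation genes were lower, among them Mki67, a marker of cycling cells (19.5 ± 4.21 against 48.6 ± 2.64 FPKM, n = 2 each). Of 10 fibroblast markers 5 were higher and 2 lower, with sums of 5340 to 5770 FPKM against 3155 to 3406 FPKM. The part of both lists in these values was not tested.

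With 4OHT present, no member passed for PD0325901 in limma (6.98% of genes did), and 2 had an unadjusted p under 0.05, Suz12 and Phf19. Suz12 stood at 43.5 and 48.2 FPKM against 52.9 and 59.6 FPKM with 4OHT alone (log2 difference -0.29, SE 0.0939, adjusted p = 0.111). Phf19 stood at 10.1 and 7.98 FPKM against 10.7 and 17.8 FPKM (log2 difference -0.62, adjusted p = 0.184). The interaction of 4OHT and PD0325901 passed for none of the members in limma, with Phf1 alone at an unadjusted p under 0.05 (adjusted p = 0.274), and for 0.726% of genes.

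TSA was the treatment with the largest fold changes of Phf19 and Jarid2 within the inhibitor experiment. It changed 3 members, 1 higher and 2 lower, and 2 of them by at least 2-fold. TSA also changed 55.9% of all genes tested, 31.4% higher and 24.4% lower, and 32.1% by at least 2-fold, so the count of members is not above the background. Phf19, a Polycomb-like subunit, fell from 11.1 and 11.6 FPKM to 1.53 and 1.37 FPKM, a 7.81-fold lower mean (log2 fold change -2.88, SE 0.243, adjusted p = 6.4e-05, limma). The deposited interval of the second TSA value was wide, from 0 to 8.38 FPKM, and its upper end still lay below the lower ends of the untreated intervals, 9.31 and 10.4 FPKM. The first TSA value had an interval from 1.18 to 1.89 FPKM. With either TSA library left out, the log2 fold change was -2.81 or -2.96.

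Jarid2, the accessory subunit of the other form of PRC2, moved the opposite way. It rose from 1.49 and 1.62 FPKM to 3.92 and 5.25 FPKM, a 2.81-fold change on the fitted scale (log2 fold change 1.49, SE 0.232, adjusted p = 0.00112, limma). These were the highest Jarid2 values among the 10 libraries of the inhibitor experiment. Eed fell from 27.4 and 23.5 to 19.2 and 19.05 FPKM (log2 fold change -0.41, SE 0.146, adjusted p = 0.0459), a call lost with no filter on low values (adjusted p = 0.0522) and when any 1 library of untreated, TSA or 4OHT day 6 cells was left out (adjusted p up to 0.239). Mtf2 stood at 17.1 and 18.03 FPKM against 12.04 and 12.5 FPKM, without overlap, and missed the limit (log2 difference 0.51, adjusted p = 0.0665). Phf1 stood at 11.4 and 12.9 FPKM against 10.0 and 9.14 FPKM, with intervals of 82.4% and 63.6% either side of the TSA values (log2 difference 0.34, adjusted p = 0.249).

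The catalytic subunits and the scaffold differed less under TSA. Ezh2 stood at 28.3 and 25.4 FPKM against 28.7 and 27.4 FPKM, and the 95% interval of its log2 difference ran from -0.32 to 0.20. Suz12 stood at 64.4 and 64.1 FPKM against 58.8 and 61.3 FPKM, with an interval from -0.12 to 0.31. Ezh1 stood at 4.52 and 4.38 FPKM against 4.30 and 3.93 FPKM (interval -0.54 to 0.77). The deposited interval of Ezh1 reached 88.1% either side of a TSA value. In the TSA libraries 14 of 21 proliferation genes were lower and none higher, where 24.4% of all genes were lower, with a median log2 fold change of -0.72. Cd68, a lysosomal protein abundant in macrophages, rose from 4.59 ± 0.444 to 63.7 ± 4.58 FPKM (n = 2; log2 fold change 3.77, adjusted p = 0.000415, limma). The 5 epithelial markers summed to between 34.3 and 40.9 FPKM, against 1.28 to 1.39, most of it Epcam (28.7 FPKM ± 0.796), and the 5 endothelial markers to between 2.04 and 2.27 FPKM, against 0.129 to 0.211. Of the 10 fibroblast markers 3 were higher and 5 lower. The part of these changes in the values of Phf19 and Jarid2 was not tested.

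**Figure D3:**
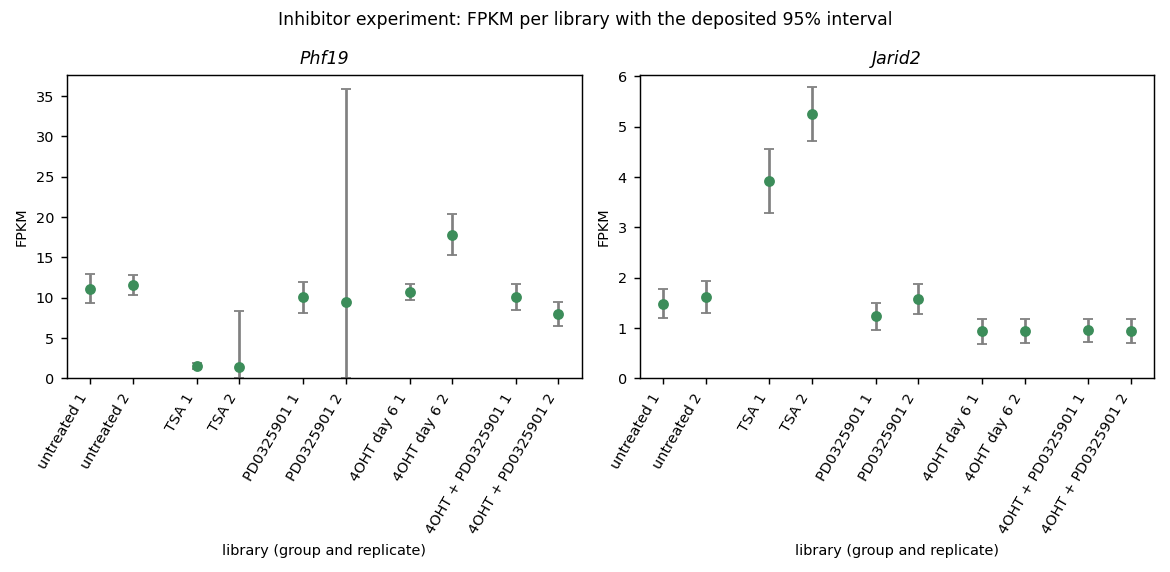
FPKM of Phf19 and Jarid2 (vertical axes, linear from 0) in the 10 libraries of the inhibitor experiment (horizontal axes), with bars for the deposited 95% interval of each value. The 2 TSA libraries hold the lowest Phf19 values, 1.53 and 1.37 FPKM, and the highest Jarid2 values, 3.92 and 5.25 FPKM; TSA replicate 2 and PD0325901 replicate 2 have wide Phf19 intervals.

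The 3 Polycomb-like subunits occupy the same place on Suz12, so their shares in their summed FPKM were set side by side as a description. In untreated cells of the inhibitor experiment Phf19 made up 33.5% and 34.9% of the sum, and Mtf2 36.3% and 37.7%. With TSA, Phf19 made up 5.12% and 4.25%, Mtf2 57.0% and 55.9%, and Phf1 37.9% and 39.9%. The sum itself was 30.0 and 32.3 FPKM with TSA and 33.2 FPKM in both untreated libraries. In the other 8 libraries of that experiment the share of Phf19 was at least 24.2%. In the total RNA experiment, the share of Phf1 was 16.1% and 14.5% in the untreated libraries with a value and 25.4% and 25.1% in those of long-term KO. In the siRNA experiment, Mtf2 made up 30.4% and 30.1% in siCtrl, 46.5% and 33.8% in 4OHT + siCtrl, and 41.0% and 42.6% in 4OHT + siDnmt1. In this last group the sum was 51.9 and 40.1 FPKM, against 28.6 and 27.1 FPKM in siCtrl.

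**Figure D4:**
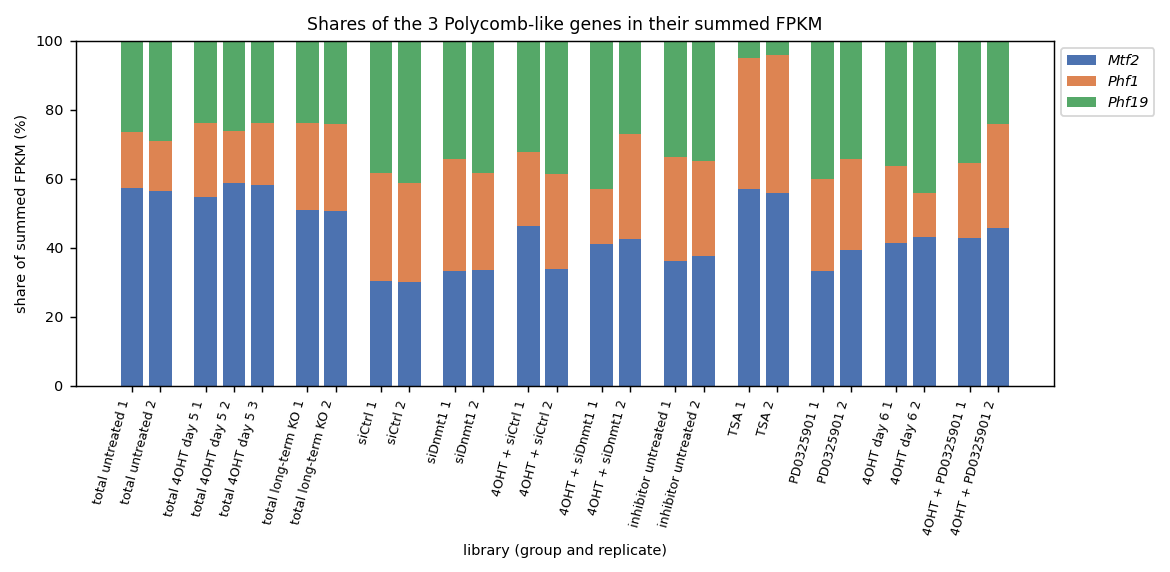
Shares (percent, vertical axis) of Mtf2, Phf1 and Phf19 in their summed FPKM, 1 bar per library with a value for all 3 genes, grouped along the horizontal axis. Phf19 takes between 4.25% and 5.12% in the TSA libraries and at least 24.2% in the other 8 libraries of the inhibitor experiment.

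Ezh2 exceeded Ezh1 in every library, by 3.17-fold at the least and 12.02-fold at the most. In total RNA, the log2 ratio of Ezh2 to Ezh1 was 2.24, 2.26 and 2.12 in untreated libraries, 1.91, 1.72 and 1.66 at day 5 and 1.83, 1.88 and 1.95 in long-term KO libraries. Both 4OHT groups lay below every untreated library, by -0.44 at day 5 and -0.32 in long-term KO cells (exact permutation p = 0.1 for each, two-sided, the smallest possible). The 2 groups overlapped with each other (difference 0.13, exact permutation p = 0.3). Of the pair, Ezh1 alone passed the test at day 5, and both passed, higher, in long-term KO cells.

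In groups of 2 no exact test can go below 0.33, and these ratios are given as values. The log2 ratio was 3.14 and 3.09 in siCtrl and 3.15 and 3.11 in siDnmt1, while 4OHT + siCtrl gave 3.08 and 2.34 and 4OHT + siDnmt1 2.05 and 2.62. In the inhibitor experiment it was 2.74 and 2.80 in untreated cells, 2.65 and 2.54 with TSA, 3.45 and 2.93 with PD0325901 and 2.86 and 2.37 with both. The deposited Ezh1 interval reached 88.1% either side of the value with TSA and 54.4% with PD0325901, against at most 16.7% in untreated cells. The 4OHT day 6 libraries gave 3.59 and 2.68, on either side of the untreated values, and the difference of 0.37 came from replicate 1 (-0.09 without it). Ezh1 had 2.995 FPKM in that library and 5.02 FPKM in the other.

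**Figure D5:**
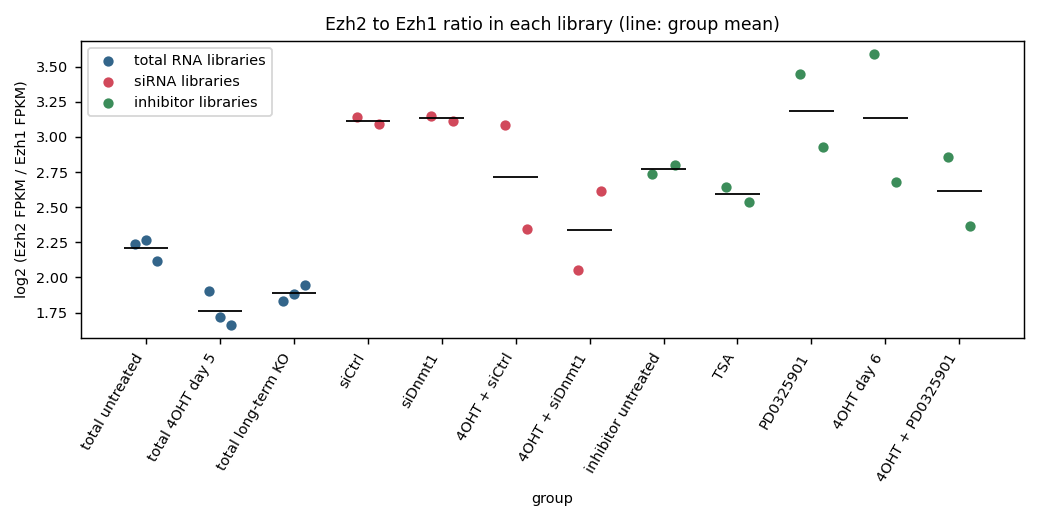
Log2 ratio of Ezh2 FPKM to Ezh1 FPKM (vertical axis) in each library of the 12 groups (horizontal axis), with lines at group means and colours for the experiments. The untreated total RNA libraries sit between 2.12 and 2.26, above all day 5 and long-term KO libraries.

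Other subunits that bind the core were read from a list of 6. In long-term KO cells 2 of the 5 tested were higher and 1 lower, near the background of 67% in either direction. Rbbp4, a histone chaperone of PRC2 and other complexes, rose to 102 FPKM ± 2.78 from 54.2 ± 14.9 (SD, n = 3; log2 fold change 0.94, adjusted p = 0.00134, limma), and Aebp2, the partner of Jarid2, to 33.7 ± 1.40 from 20.6 ± 1.47 (0.71, adjusted p = 2.4e-05). E130012A19Rik, also called Epop, which links PRC2 to Elongin BC, fell to 1.77 ± 0.221 from 3.07 ± 0.326 FPKM (-0.76, adjusted p = 0.000405). At day 5 Aebp2 alone passed, at 25.0 ± 1.21 FPKM (0.27, adjusted p = 0.0104). With TSA 1 of 5 was higher and 2 lower, near the background of 55.9%. E130012A19Rik rose from 2.59 ± 0.243 to 8.63 ± 1.65 FPKM (n = 2; 1.69, adjusted p = 0.000472), while Aebp2 fell from 14.98 ± 0.164 to 7.82 ± 0.194 FPKM (-0.93, adjusted p = 0.00189) and Rbbp7 from 178 ± 2.24 to 110 ± 20.3 FPKM (-0.71, adjusted p = 0.00231). E130012A19Rik was also higher at 4OHT day 6 in the inhibitor experiment, at 7.48 FPKM in both libraries (1.497, adjusted p = 0.00404). None of these genes passed with siDnmt1, with 4OHT + siCtrl or with PD0325901. Of the 4 tested with siDnmt1, 2 estimates were above 0 and 2 below. Among them E130012A19Rik stood at 9.72 and 10.6 FPKM against 4.13 and 5.33 FPKM in siCtrl, without overlap. The H3K27 demethylases, of which 2 of 3 were tested, passed in no comparison.

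PRC1 compacts chromatin marked by PRC2 and ubiquitinates histone H2A. Of 21 PRC1 and related genes tested in total RNA, 11 were higher and 3 lower in long-term KO cells (median log2 fold change 0.31, against 0.07 for all genes), and 2 higher and 3 lower at day 5 (median 0.00). The background was 37.6% higher and 29.4% lower in long-term KO cells and 36.2% in either direction at day 5, so the total count of 14 in long-term KO cells was near the background and that of 5 at day 5 below it. Rybp, a subunit of variant PRC1, rose from 4.50 ± 0.407 to 8.55 ± 0.128 FPKM (n = 3; log2 fold change 0.92, adjusted p = 9.1e-06, limma) and L3mbtl2 fell from 13.4 ± 0.322 to 8.13 ± 0.724 FPKM (-0.71, adjusted p = 2.4e-05). With 4OHT + siCtrl both went the other way, Rybp at -0.68 (adjusted p = 0.0354) and L3mbtl2 at 0.62 (adjusted p = 0.0293, limma). Rybp was also lower with siDnmt1 (-0.88, adjusted p = 0.0234). Cbx7, a reader of methylated H3K27, was 36.1, 2.56 and 3.53 FPKM in long-term KO libraries, 0.74, 0.62 and 0.69 FPKM in untreated ones and listed at 0 in all 3 of day 5, an uneven set of values. It reached the limit for testing through the long-term KO libraries alone, so it had to differ there. Its places among the 11 higher and, at day 5, among the 3 lower are thus descriptions. With TSA 6 of 21 were higher and 6 lower, near the background of 55.9% and with no common direction: Cbx7 rose from 0.767 ± 0.143 to 3.63 ± 0.159 FPKM (n = 2; 2.11, adjusted p = 0.00342), while Pcgf2 fell from 17.5 ± 0.310 to 6.78 ± 1.03 FPKM (-1.36, adjusted p = 0.000891) and Asxl1 from 17.2 ± 0.308 to 7.88 ± 0.134 FPKM (-1.12, adjusted p = 0.000112). At 4OHT day 6, 4 of 21 were higher and 2 lower, against 24.9% of all genes in either direction. Of 19 tested in the siRNA experiment, 4 were higher and 1 lower with 4OHT + siCtrl, against 13.7%. With siDnmt1 1 was higher and 3 lower, against 7.91%.

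Of 26 developmental genes known as targets of PRC2 in many cell types, only 6 reached the limit for testing in total RNA, 11 in the siRNA and 13 in the inhibitor experiment. A gene that entered through the group where it is high had to differ, so these counts are descriptions. With TSA 4 were higher and 4 lower. Nkx2-5 and Wnt1 were listed at 0 in untreated libraries and averaged 2.201 ± 0.702 and 1.32 ± 0.0720 FPKM with TSA (n = 2). Gata4 went from 0.182 ± 0.0858 to 2.22 ± 0.160 FPKM, so none of these genes reached 1 FPKM in untreated libraries. Tbx5 fell from 7.55 ± 0.481 to 1.10 ± 0.145 FPKM (log2 fold change -2.68, adjusted p = 6.5e-05, limma). In long-term KO cells Tbx5 rose from 3.49 ± 0.0644 to 11.6 ± 1.64 FPKM (n = 3; 1.70, adjusted p = 8.8e-06) and Isl1 from 5.60 ± 0.612 to 18.0 ± 2.84 FPKM (1.66, adjusted p = 1.4e-05), and Lmx1b fell from 2.99 ± 0.358 to 0.545 ± 0.0400 FPKM (-2.26, adjusted p = 7.2e-07). The same Tbx5 and Isl1 were lower at 4OHT day 6 in the inhibitor experiment (-1.14, adjusted p = 0.0114, and -1.09, adjusted p = 0.00521) and with 4OHT + siCtrl (-1.13, adjusted p = 0.0217, and -1.01, adjusted p = 0.0488). With siDnmt1 and no 4OHT, 4 of 11 were lower and none higher, where 7.91% of all genes passed in either direction. Isl1 was among these (-1.48, adjusted p = 0.0238), as were Tbx3 (-1.40, adjusted p = 0.0138) and Bmp2 (-2.60, adjusted p = 0.0338, limma). A lower Isl1 was thus not particular to 4OHT. At day 5 in total RNA neither passed, at 3.34 ± 0.460 FPKM for Tbx5 and 4.62 ± 0.443 FPKM for Isl1 (n = 3), and against day 5 both rose in long-term KO cells (1.77, adjusted p = 7.7e-06, and 1.93, adjusted p = 6.8e-06, limma).

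Of 19 proliferation genes tested in total RNA, 7 were higher and 6 lower in long-term KO cells, near the background of 67% in either direction. Mki67 rose from 36.5 ± 1.72 to 58.7 ± 2.34 FPKM (n = 3; log2 fold change 0.69, adjusted p = 1.5e-05, limma) and Cdc6, which licenses replication origins, fell from 27.2 ± 1.49 to 14.3 ± 4.49 FPKM (-0.97, adjusted p = 0.0129). With TSA, where Ezh2 did not pass the test, Plk1 fell from 55.9 ± 0.890 to 19.7 ± 1.80 FPKM (n = 2; -1.505, adjusted p = 6.0e-05).

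Each gene's 12 group means were centred within its experiment to compare patterns. The root mean square of the centred log2 values was 0.15 for Ezh2, at the 7.27 percentile of all genes compared, and 0.76 for Phf19 and 0.74 for Jarid2, at the 89.1 and 88.7 percentile. Ezh1, Phf1 and Mtf2 lay between, at 0.28, 0.28 and 0.34. The lowest centred value of Jarid2, -1.17, was that of day 5 in total RNA, a mean that includes the library listed at 0. Among 9096 other genes, the 5 closest to Ezh2 were Capns1, Gpbp1, Ube2v2, Dnm1l and Dera, at a root mean square difference between 0.08 and 0.09. The 5 closest to Ezh1 were Fibp, Dgcr14, Dscr3, Cep85 and Asah2, at 0.09 to 0.13. The smaller the changes of a gene, the easier such closeness is reached by other genes that varied little.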

How the data were processed

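RNA was sequenced from 27 libraries. Alignment by the authors used TopHat2 2.0.12 and mm9, with 1 position kept for a read that matched several places, which leaves genes with near-identical copies uncertain. Each library was assembled with Cufflinks. The deposited files give FPKM with a 95% interval for each locus. 2 further deposited tables hold the authors' own comparisons and were not used. Total RNA files carry no gene names, and a locus was matched where it covered 95% of a gene's span in the named libraries. A locus that joined several genes gave no value.

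The 3 experiments had separate limma 3.58.1 fits (R 4.3.3, trended, all groups) on log2(FPKM + 0.1), which understates changes of low genes. A gene was tested if it reached 1 FPKM in at least 3 total RNA libraries or in at least 2 libraries of another experiment. Changed means a Benjamini-Hochberg adjusted p under 0.05 over all genes tested; 10 comparisons and 2 interactions were made, two-sided. All 8 members are named; from other lists, up to 3 genes per comparison with the largest change among those that passed without overlap, and other genes were chosen after their values were seen. The members and lists were chosen with earlier results of these data known. Ratios were compared by exact permutation. Read counts are not in the files, so depth is unknown. The fit was tested on simulated data, in 1 comparison per experiment. Of 50 genes given a 1.5-fold change, it called 43 in the total RNA, 13 in the siRNA and 8 in the inhibitor experiment. For 2-fold changes it called 48, 35 and 30 of 50. Most changes of 1.5-fold were thus missed in groups of 2, where a gene that did not pass may still have changed. A list of haematopoietic markers is not reported here. Alternatives were pseudocounts of 1 and 0.01, no filter, median-ratio and quantile scaling, a replicate block, joined loci and libraries left out. Python 3.11.15, numpy 2.4.6, pandas 2.3.3 and matplotlib 3.10.9 were used. Promoter sequences are from RefSeq, with 10 windows for the 8 members.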

Additional observations from a re-analysis of the deposited data

Results flagged for a closer look

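No group holds 4 libraries or more, so no outlier test was made. For 3 members the difference from untreated cells had opposite signs at day 5 and in long-term KO cells, and the difference between both times passed the test. That test alone was passed by 65.9% of all genes, and the share of genes that met both conditions was not counted. For Suz12 the difference between both times was -0.72 on the log2 scale (0.17 at day 5, -0.54 in long-term KO). For Ezh2 it was 0.57 (-0.07 and 0.50) and for Jarid2 2.38 (-1.13 and 1.24). Of the 3, Suz12 alone passed the test at day 5. The day 5 value of Ezh2 had a 95% interval from -0.21 to 0.07, so its sign was not settled. The Jarid2 value rests on the day 5 library where the gene is listed at 0, and without that library it is 1.19 and the day 5 difference turns to 0.06, the sign it has in long-term KO cells.

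The interaction of 4OHT and siDnmt1 passed for Cbx7, a PRC1 gene, at -5.21 on the log2 scale (adjusted p = 0.0447, limma). Cbx7 had 0.86 and 0.77 FPKM in siCtrl, 0.96 and 1.12 FPKM in siDnmt1 and 1.98 and 4.20 FPKM in 4OHT + siCtrl, and it was listed at 0 in both 4OHT + siDnmt1 libraries. A gene listed at 0 can be a failed estimate, which was not tested, and the size of this value depends on the pseudocount. Cbx7 also reached the limit for testing only with its 4OHT + siCtrl libraries, so a difference from that group had to appear.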

How the results depend on the processing

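The number of members that passed stayed within 1.5 times its value under both other pseudocounts, no filter, median-ratio scaling, quantile normalization, joined loci and the replicate block, in each comparison where the alternative applies. With libraries left out, it ranged from 2 to 3 at day 5, 4 to 7 for long-term KO against untreated, 4 to 6 against day 5, 0 to 2 with 4OHT + siCtrl, 0 to 1 at 4OHT day 6, 0 to 1 with PD0325901 and 2 to 3 with TSA, and it was 0 in the other comparisons. In 2-library groups the lone library left is assumed to vary like the other groups.

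No value that passed changed sign. Jarid2 in long-term KO against untreated passed with a pseudocount of 1 (0.82, adjusted p = 0.0265). Against day 5 it missed the limit with a pseudocount of 0.01 (adjusted p = 0.0967) and no filter (0.0573), and Phf1 did so with no filter (0.0533) and median-ratio scaling (0.0660). Phf1 against day 5 also missed it with quantile normalization (0.0866) and joined loci (0.159), and Phf19 passed there with both scalings (adjusted p up to 0.0229). Mtf2 under TSA passed with quantile normalization (adjusted p = 0.0336). Among called genes, the share that was higher moved from 39.1% to 53.2% with siDnmt1, from 52.6% to 40.1% with 4OHT + siCtrl and from 71.1% to 58.6% for the interaction of 4OHT and PD0325901 with median-ratio scaling, and from 61.9% to 49.2% for PD0325901 with 4OHT with quantile normalization. Quantile normalization moved the median of all genes by -0.11 for the interaction of 4OHT and PD0325901. Same-numbered libraries did not deviate together throughout: correlations of deviations ran from -0.06 to 0.11 in total RNA, -0.07 to 0.03 in the siRNA and -0.02 to 0.25 in the inhibitor experiment. Within the last, the 3 correlations among PD0325901, 4OHT day 6 and 4OHT + PD0325901 were 0.21 to 0.25, which is a hint that these libraries pair, and those with untreated or TSA libraries were at most 0.04. No source states a pairing, so the numbers were not taken as pairs. The block changed no member's call in the comparisons of PD0325901, and gave 906 calls over all genes, in place of 798, for PD0325901 with 4OHT. With the replicate block, Jarid2 against day 5 (adjusted p = 0.0550) and Eed under TSA (0.0527) missed the limit and Mtf2 under TSA passed (0.0200).

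Over all genes, calls moved by more than 1.5 times with the replicate block for siDnmt1 (845 to 522), siDnmt1 with 4OHT (217 to 86) and the interaction (21 to 13), and for that interaction with a pseudocount of 1 (37) and no filter (50). Without 1 library, siDnmt1 gave 74 to 2474, 4OHT + siCtrl 103 to 2980, siDnmt1 with 4OHT 54 to 2432, 4OHT day 6 855 to 2953, PD0325901 376 to 1680, PD0325901 with 4OHT 346 to 880, TSA 4228 to 6621 and the interactions 9 to 717 with siDnmt1 and 32 to 183 with PD0325901. The lowest of these counts came without siCtrl replicate 2, siDnmt1 replicate 1 or 2, untreated replicate 2, TSA replicate 2 or 4OHT + PD0325901 replicate 1, and the highest without 4OHT + siCtrl replicate 1 or 2, PD0325901 replicate 2 or 4OHT + PD0325901 replicate 2.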
